A study of Camelus dromedarius with 30 samples.

Results

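WNT7B is a secreted Wnt ligand, and its messenger RNA was followed through the kidney of the one-humped camel (Camelus dromedarius) under water deprivation. It is 1 of 22444 genes in the count table, identifier ENSCDRG00005012180, and 1 of the 15376 genes that passed the filter on low counts. It was picked because its level was higher in dehydrated than in control cortex, so every comparison that uses those cortical libraries is given as a description, without a test. The 30 poly-A RNA-seq libraries came from cortex and medulla of 15 male camels aged 4 to 5 years, 5 per condition. Control camels drank freely, dehydrated camels had feed but no water for 20 days, and rehydrated camels went through the same 20 days and then drank freely for 3 days. The libraries held 12634346 to 20005136 counted read pairs.

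Wnt ligands are lipid-modified glycoproteins that act on nearby cells. They bind Frizzled receptors together with LRP co-receptors, Dishevelled proteins relay the signal, the GSK3B-containing complex stops degrading β-catenin, and β-catenin then works with TCF and LEF factors in the nucleus. In the developing mouse kidney, Wnt7b is made by the collecting duct epithelium and is required for a medulla to form. RECK is known as a co-receptor that makes cells respond to this ligand in the vessels of the brain.

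The annotation places WNT7B on the minus strand of chromosome 12 in the CamDro2 assembly, from 64204956 to 64257775. It lists 5 distinct exon intervals that add up to 4413 bases. The most upstream interval runs from 64257129 to 64257775, and the next from 64252707 to 64253172. The last and longest, 2801 bases, spans 64204956 to 64207756. No other annotated gene overlaps the interval on either strand, and the counting was stranded and left out read pairs with several alignments.

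In control cortex WNT7B was close to the limit of detection. The 5 libraries held 9, 2, 13, 12 and 14 read pairs from the gene, or 0.765, 0.146, 1.28, 1.05 and 1.30 CPM, the count scaled to library size with TMM factors. The mean was 0.907 ± 0.478 CPM (SD, n = 5), and only 13.9% of the tested genes had a lower mean in that group.

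Dehydrated cortex gave 11.1, 23.3, 37.9, 12.1 and 22.3 CPM, from 141 to 668 read pairs, with a mean of 21.3 ± 10.8 CPM (SD, n = 5). The lowest dehydrated library was above the highest control library. Of all tested genes, 3.17% had 5 dehydrated cortices above the 5 controls in this way, and the gene was picked for this contrast. In the ordering of mean levels, WNT7B moved from above 13.9% to above 57.7% of the tested genes.

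Rehydrated cortex gave 4.28, 7.02, 29.0, 5.06 and 12.8 CPM, with a mean of 11.6 ± 10.3 CPM (SD, n = 5). These 5 libraries also lay above the 5 controls, as did 0.364% of the tested genes. They overlapped with dehydrated cortex: 3 of the 5 were below the lowest dehydrated library, and replicate 3 was above 4 of the 5 dehydrated libraries.

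The medulla was different in level and in steadiness. Control medulla gave 134.9, 133.4, 161.4, 83.0 and 120.0 CPM, a mean of 127 ± 28.6 (SD, n = 5). Dehydrated medulla gave 109.2, 133.8, 187.7, 131.6 and 122.5 CPM, a mean of 137 ± 30.0 (SD, n = 5). Rehydrated medulla gave 175.4, 130.7, 125.3, 161.7 and 121.0 CPM, a mean of 143 ± 24.2 (SD, n = 5). The medullary groups overlapped throughout, and WNT7B stood above 91.7%, 92.7% and 93.3% of the tested genes in them. The highest library in all 3 medullary groups was at most 1.95 times the lowest, against 8.93, 3.42 and 6.77 times in control, dehydrated and rehydrated cortex.

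**Figure D1:**
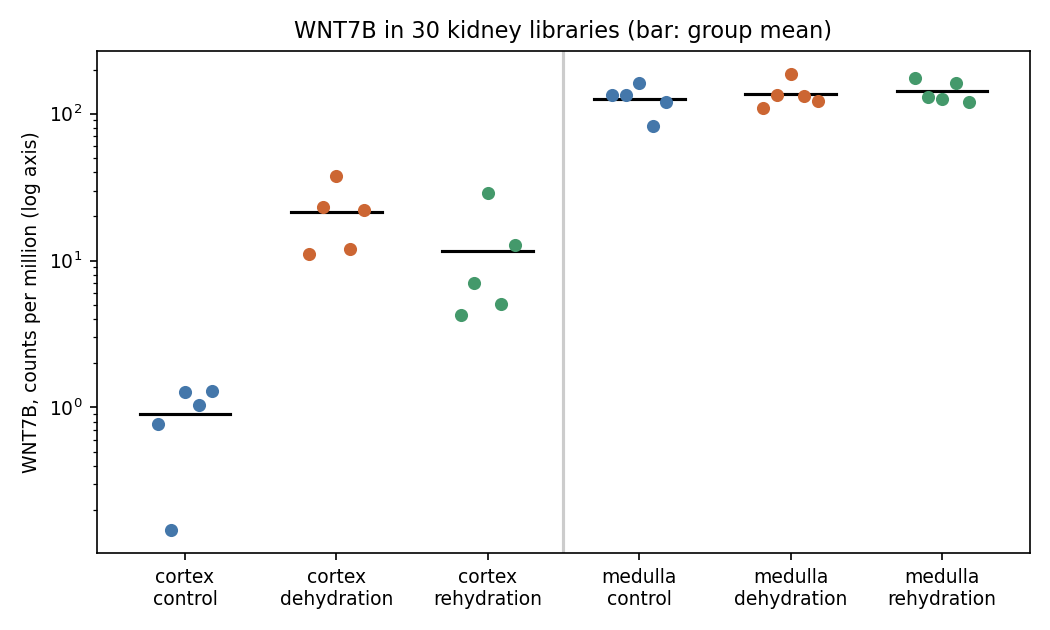
WNT7B in CPM (log axis) in each of the 30 libraries, 5 per group, with the group mean as a bar. Control cortex lies at 0.146 to 1.30 CPM, below all other groups, the dehydrated and rehydrated cortices overlap, and the 3 medullary groups share 1 range from 83.0 to 187.7 CPM.

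Fitted with edgeR across all genes, the WNT7B difference between dehydrated and control cortex was 4.61 ± 0.51 on the log2 scale (SE), or 24.4-fold with a 95% interval from 11.8- to 50.4-fold. Rehydrated against control cortex gave 3.71 ± 0.53, or 13.1-fold. Rehydrated against dehydrated cortex gave -0.90 ± 0.37 (interval -1.65 to -0.14). That last value leans on single libraries, in both directions. Without dehydrated replicate 3, which had 37.9 CPM, it was -0.58. Without rehydrated replicate 3, which had 29.0 CPM, it was -1.56, and the rehydrated excess over control was 3.05 in place of 3.71. The fitted values in cortex kept their sign under every alternative tried.

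In the medulla no comparison of conditions passed the test for WNT7B. Dehydration compared to controls gave a log2 fold change of 0.11 ± 0.34 (SE), with an interval from -0.57 to 0.80, an edgeR adjusted p of 0.927 and an exact two-sided permutation p of 0.595. Rehydration compared to controls gave 0.17 ± 0.34, an edgeR adjusted p of 0.885 and an exact permutation p of 0.397. Rehydration compared to dehydration gave 0.06 ± 0.34, an edgeR adjusted p of 0.948 and an exact permutation p of 0.738. The smallest exact p that 5 against 5 libraries allow is 0.00794. At this spread the intervals leave room for a medullary change of up to 1.74-fold upwards or to 0.672 of the control level under dehydration.

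Side by side, the dehydration change was 4.61 in cortex and 0.11 in medulla, a difference of 4.49 ± 0.63 (SE). The corresponding difference for rehydration was 3.53 ± 0.64. Of the 15376 genes, 7, or 0.0455%, passed the edgeR test of such a tissue difference for dehydration. WNT7B is given here without a test because the cortical values of this comparison are those it was picked on.

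The distance between medulla and cortex was smaller in the camels that had gone without water. Medulla exceeded cortex by 7.17 ± 0.51 on the log2 scale in controls (144-fold) and by 2.67 ± 0.36 in dehydrated camels (6.38-fold). In rehydrated camels it exceeded cortex by 3.63 ± 0.39 (12.4-fold, edgeR adjusted p = 1.39e-08), with the 5 medullary libraries above the 5 cortical ones. Since 61.1% of all tested genes differed between the tissues in rehydrated camels, that call is common. Without rehydrated cortex replicate 3 the difference was 4.29. The adjusted p ranged from 1.94e-18 with DESeq2 to 0.000166 over the alternatives other than leaving out a single library. These include a block fit restricted to libraries whose sample-name number occurs in both tissues. With the camels of the labels as a replicate block the difference was 3.91, with an edgeR adjusted p of 0.00013. That block may pair different camels, because the labels and the sample names number the rehydrated camels differently.

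**Figure D2:**
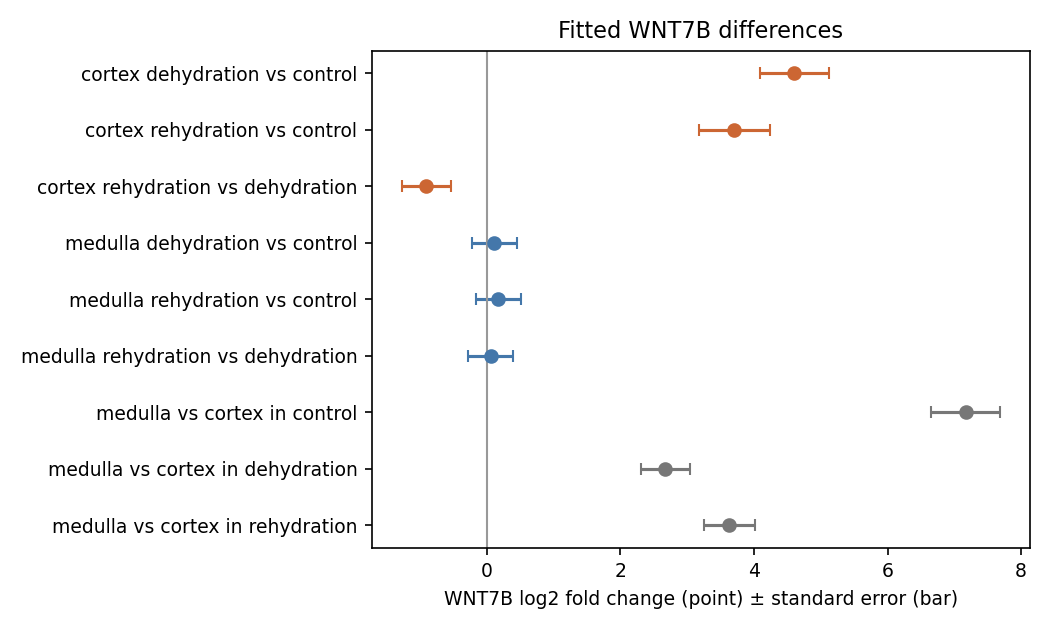
Fitted log2 fold changes of WNT7B (points) with standard errors (bars) for the 9 comparisons, with cortical comparisons in orange, medullary ones in blue and tissue comparisons in grey. The medullary points sit within 1 standard error of 0, while the cortical change under dehydration is 4.61.

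Because WNT7B was so much higher in medulla, genes of the medulla were also read in the cortical libraries. The list was made after the data were seen: the 100 genes with the highest ratio of mean medullary to median cortical level, WNT7B left out. The cortical median was taken over all cortical libraries, dehydrated and rehydrated ones included. Genes that rise in both are thus less likely to be listed, and low cortical shares are partly built into the list. The summed level of the 100 genes was 209 to 236 CPM in control cortex, 265 to 856 CPM in dehydrated cortex and 121 to 296 CPM in rehydrated cortex, against 2887 to 6843 CPM in the medulla. The dehydrated cortical libraries were thus above the controls in these genes as well, with replicate 3, the library with the most WNT7B, also highest in the sum. Rehydrated cortex replicate 3, with 29.0 CPM of WNT7B, had a sum of 168 CPM, below every control library. Without dehydrated cortex replicate 3, the fitted WNT7B change in cortex was 4.29.

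Expressed as a share of the medullary mean, cortical WNT7B was 0.717% in controls, 15.6% in dehydrated and 8.14% in rehydrated camels. For the 100 medullary genes the median share was 4.23%, 4.39% and 4.89%. In control camels 89 of the 100 genes had a higher share than WNT7B, in dehydrated camels 6 and in rehydrated camels 18. These counts partly follow from how the list and WNT7B were picked. The rehydrated count depends on the length of the list, being 6.0% of the top 50 genes and 48.5% of the top 200. SLC14A1, a urea transporter named here after its values were seen, had shares of 0.107%, 0.457% and 0.218%.

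The median cortical change of the 100 genes under dehydration was 0.44 on the log2 scale, against 0.00 for all tested genes, and 6 of them were called higher (1.27% of all genes were). Only 1 of the 100 had a cortical change at least as large as that of WNT7B, which was picked for its rise in this comparison. Under rehydration the median was 0.45, against 0.02 for all tested genes, and 2 had a change at least as large as that of WNT7B. In that comparison 0 of the 100 were called by edgeR and 8 had an unadjusted p under 0.05, against 0.0845% and 8.28% of all genes. Across the 15 cortical libraries, log2 WNT7B and the log2 sum had a Pearson r of 0.47 and a Spearman rho of 0.47. How much of the WNT7B difference goes with medullary tissue in the cortical samples was not tested. Fewer cells that make a transcript and less transcript per cell cannot be told apart in bulk tissue.

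**Figure D3:**
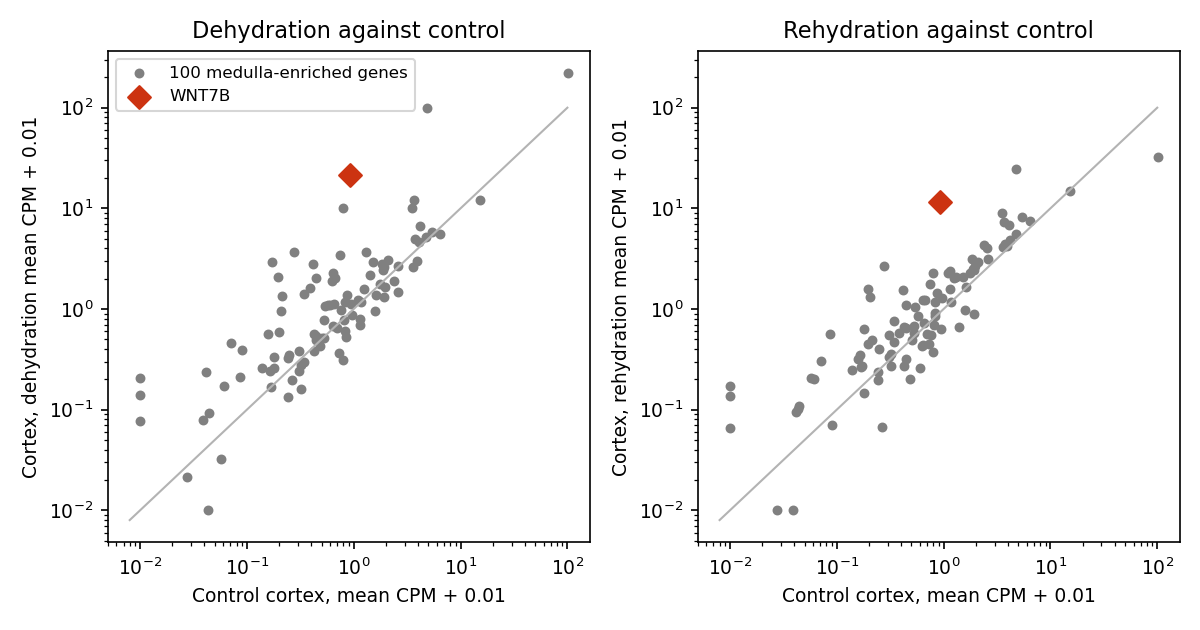
Mean level in control cortex (horizontal, CPM plus 0.01, log axis) against dehydrated (left) or rehydrated cortex (right, same scale) for 100 medulla-enriched genes (grey points) and WNT7B (red diamond), with the line of equal levels. WNT7B lies at 0.907 CPM in control and at 21.3 and 11.6 CPM in the other cortices, farther from the line than nearly all of the grey points.

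RNA integrity differed slightly between the groups. The mean RNA integrity number was 8.1, 7.7 and 7.6 in control, dehydrated and rehydrated cortex and 8.5, 8.8 and 8.7 in the medulla. With the integrity number of each library as a covariate, matched by replicate number, the cortical changes were 4.21 ± 0.68 for dehydration and 3.15 ± 0.76 for rehydration. The article's supplement lists these numbers under names that differ from some of the library names, so the match is uncertain. The labels number the rehydrated camels 1 to 5 in both tissues, whereas the sample names run from 2 to 6 in the cortex and from 1 to 5 in the medulla, so the tissue pairs of that group are uncertain.

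Cell type markers could be read only in part, because 14 of the 58 listed markers carried a symbol, none of them for proximal tubule, podocytes or urothelium, and none of the 14 was absent from a tissue. UMOD, AQP2, AQP3, HSD11B2, ATP6V1B1 and PECAM1 were on the study's lists of genes changed in the same libraries. CALB1 and CDH5 were not. Those lists supplied many of the symbols, so the readable markers are not a neutral sample and calls among them are partly built in. The medulla label fits UMOD (thick ascending limb), at 16736 CPM in control medulla against 3609 in control cortex, and CALB1 (distal tubule), at 182 against 1585. UMOD ran from 2790–4436 CPM in control to 4545–7460 CPM in dehydrated cortex, without overlap (0.73 ± 0.23, edgeR adjusted p = 0.084), and was at 2626–4950 CPM in rehydrated cortex. CALB1 ran from 660–2281 to 490–851 CPM (-1.38 ± 0.53, edgeR adjusted p = 0.189) and was at 617–2426 CPM in rehydrated cortex. Neither change passed the test. Of 3 principal cell genes, the collecting duct cells that respond to vasopressin, AQP3 was the one that rose in dehydrated cortex. This basolateral water channel went from 5.82–9.68 CPM in control cortex to 25.8–58.2 in dehydrated cortex (log2 2.36 ± 0.55, edgeR adjusted p = 0.017). It was at 1.25–16.1 CPM in rehydrated cortex, where WNT7B was still above all controls. AQP2 (0.22 ± 0.22) and HSD11B2 (-0.63 ± 0.24) did not pass the test in dehydrated cortex. The summed level of the 3 genes was 644–817 CPM in control, 460–657 in dehydrated and 487–638 in rehydrated cortex. Between control medulla and control cortex these 3 differed in direction. Mean AQP2 was 286 CPM against 199, AQP3 66.4 against 7.60 and HSD11B2 157 against 511. ATP6V1B1, an intercalated cell gene, had 243 CPM against 391. Under dehydration the medulla had changes of -1.07 ± 0.24 in HSD11B2 (edgeR adjusted p = 0.0155) and -0.82 ± 0.16 in ATP6V1B1 (edgeR adjusted p = 0.0043). From dehydration to rehydration these changed by 1.63 ± 0.24 (edgeR adjusted p = 0.000225) and 1.07 ± 0.16 (edgeR adjusted p = 0.000201). Medullary AQP2 and AQP3 did not pass in either comparison. The endothelial gene PECAM1 rose by 0.74 ± 0.14 in dehydrated cortex (edgeR adjusted p = 0.0043). CDH5, the other endothelial gene, did not pass (0.39 ± 0.20, edgeR adjusted p = 0.388), and its ranges of 27.2–43.3 and 32.6–61.9 CPM overlap. PECAM1 and CDH5 together summed to 196–231 CPM in control and 318–390 CPM in dehydrated cortex, most of it PECAM1. The part of these cell types in the WNT7B result was not tested.

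Of 85 other Wnt pathway genes on a list of ligands, receptors, inhibitors, transducers and targets, only 10 carried a symbol, all of them tested. Most of these symbols come from genes that the study had listed as changed in the same libraries, RECK and GSK3B excepted, so the 10 are not a neutral sample of the pathway. No other ligand, Frizzled, LRP co-receptor or R-spondin could be read.

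In dehydrated against control cortex 2 of the 10 passed the test, 1 in each direction, against 2.45% of all tested genes. The median change of the 10 was 0.11 and that of all genes 0.00. SFRP4, a secreted inhibitor that binds Wnt ligands, fell by 2.11 ± 0.47 on the log2 scale (edgeR adjusted p = 0.013), from 2.27–13.8 CPM to 1.22–4.46 CPM, and these ranges overlap. It was called without each of the 10 libraries in turn and in 8 of 9 other settings, but not with RNA integrity as a covariate. TCF7L1, a TCF factor that mostly represses its targets, rose by 0.80 ± 0.21 (edgeR adjusted p = 0.04), from 8.22–17.7 CPM to 18.4–25.6 CPM. Its call held in 2 of the 10 fits that left out 1 library and in 5 of 9 other settings. Dehydrated replicate 2 was the highest of the dehydrated libraries for both SFRP4 and TCF7L1.

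Among the genes that did not pass, the inhibitor SOSTDC1 had a change of -0.85 ± 0.24 (adjusted p = 0.052 by edgeR) and MYC, a classical β-catenin target, of 1.28 ± 0.37 (adjusted p = 0.06 by edgeR). In the 9 other settings SOSTDC1 was called in 5 and MYC in 1. With 1 library left out, SOSTDC1 was called in 0 of 10 fits and MYC in 1. MYC had 7.98–17.2 CPM in control, 14.5–54.2 in dehydrated and 18.9–64.6 CPM in rehydrated cortex. In rehydrated against control cortex 0 of the 10 passed by edgeR (0.0845% of all genes did), and DESeq2 called 1, MYC. An unadjusted edgeR p under 0.05 was found for 3 of the 10 and for 8.28% of all genes. In rehydrated against dehydrated cortex 1 of 10 passed (2.32% of all genes): TCF7L1 fell by 0.84 ± 0.21 (edgeR adjusted p = 0.029), back to 7.8–15.6 CPM.

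In the medulla, dehydration compared to controls called 0 of 10 by edgeR (1.68% of all genes), and DESeq2 called 2, DVL3 and RYK. An unadjusted edgeR p under 0.05 was found for 2 of the 10 and for 13.4% of all genes. The edgeR change of RYK, an atypical Wnt receptor, was 0.42 ± 0.12 (adjusted p = 0.071). Rehydration compared to controls called 1 of 10 (0.813% of all genes): DVL1, a Dishevelled protein, rose by 1.07 ± 0.27 (edgeR adjusted p = 0.049), from 22.4–38.4 to 34.4–91.6 CPM. Its call was kept without 3 of the 10 libraries. Rehydration against dehydration called 0 of 10 by edgeR (3.67% of all genes), and DESeq2 called DVL1. In that comparison 3 of the 10 had an unadjusted edgeR p under 0.05, as did 20.0% of all genes. DVL3 and GSK3B changed by at most 0.27 in size in any of the 6 comparisons, and none of these changes passed the edgeR test.

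LEF1, a nuclear partner of β-catenin, was far higher in medulla than in cortex. It was at 22.1–33.4 CPM in control medulla and at 0–2.13, 0.599–3.69 and 0–1.13 CPM in control, dehydrated and rehydrated cortex. Its cortical change under dehydration was 0.66 ± 0.48 (edgeR adjusted p = 0.59). In rehydrated camels the medulla exceeded the cortex in LEF1 by 5.24 ± 0.44 (edgeR adjusted p = 3.5e-10), in RECK by 2.15 ± 0.29 (5.2e-07), in DVL1 by 0.91 ± 0.27 (0.0044) and in RYK by 0.45 ± 0.12 (0.0023). These are 4 of 10, where 61.1% of all genes were called. Per kilobase of exon, mean WNT7B was 28.7 RPKM in control medulla, above LEF1 (17.4), RYK (21.7) and RECK (3.72). In control cortex WNT7B was 0.206 RPKM, below LEF1 (0.897), RECK (0.847) and RYK (16.5), and in dehydrated cortex it was 4.83 RPKM.

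**Figure D4:**
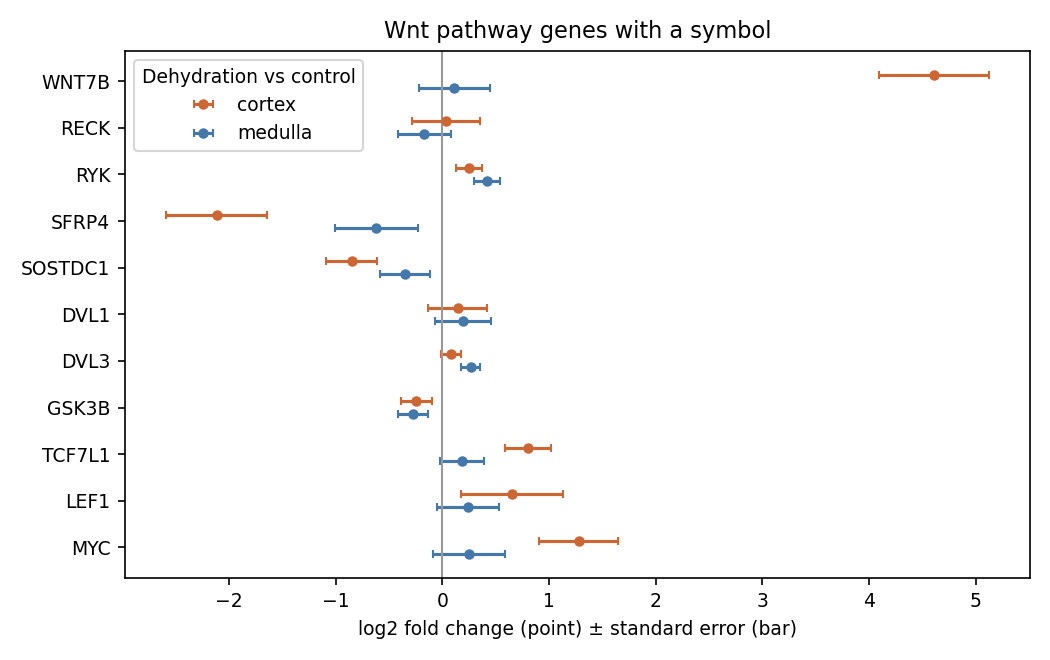
Log2 fold change of dehydration against control (points) with standard errors (bars) for WNT7B and the 10 other Wnt pathway genes with a symbol, in cortex (orange) and medulla (blue). WNT7B in cortex, at 4.61, has the largest change shown, SFRP4 is the lowest at -2.11, and the medullary points lie between -0.62 and 0.42.

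The genes next to WNT7B on chromosome 12 were read as well. Of the 5 annotated genes on each side, 8 were tested, and 0 passed in dehydrated against control cortex by edgeR (2 had an unadjusted p under 0.05), with changes from -1.91 to 0.50. Over all tested genes 2.45% passed and 14.7% had an unadjusted p under 0.05. The change of -1.91 (SE 1.10) was that of an unnamed gene of 82 bases with 174 read pairs over the 30 libraries. The next lowest was -0.62, in TTC38. ATXN10, the nearest with a symbol, 63092 bases away, had mean levels of 37.6, 40.8 and 45.9 CPM in control, dehydrated and rehydrated cortex. FBLN1, which encodes the matrix protein fibulin-1, had 149, 211 and 141 CPM. TTC38, at 317, 207 and 370 CPM, was the 1 neighbour called in any of the 6 comparisons, in rehydrated against dehydrated cortex (0.84 ± 0.19, edgeR adjusted p = 0.0168), where 2.32% of all genes were called.

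Genes most like WNT7B were ranked by the Pearson correlation of log2 CPM across the 15 libraries of a tissue. In the cortex 13187 genes were compared, and 32 had an r of at least 0.8 and 47 of at most -0.8. These points share the 3 conditions, and the gene was picked for its cortical change, so a gene that also changed under dehydration ranks high for that reason. With symbols, the 10 highest were CA9, SYMPK, CPA5, ANGPTL4, PCBP4, RNF175, SLC27A3, SPEG, NDN and TNKS1BP1 (r from 0.83 to 0.89). The 5 lowest were NOL4, TMEM251, HARBI1, XPNPEP1 and NOX4 (r from -0.90 to -0.88). Of these named genes, 9 of the 10 highest and 5 of the 5 lowest were on the study's lists of genes changed in the same libraries. Those lists supplied many of the symbols, so the named genes are not a neutral sample of the ranking.

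CA9, a carbonic anhydrase of the cell surface known to be induced by low oxygen, ranked highest of all genes (r = 0.89, rho = 0.87). Its level was 22.6, 35, 70.7, 45.2 and 80.1 CPM in control cortex, 195, 272, 191, 182 and 154 in dehydrated and 86.5, 134, 147, 104 and 101 in rehydrated cortex. The 3 groups did not overlap, and the order of the groups was that of WNT7B. In the medulla CA9 had group means of 12.1, 17.8 and 13.5 CPM, below every cortical group.

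CPA5, a carboxypeptidase, had an r of 0.86 with WNT7B in the cortex and of -0.18 in the medulla. It had 0 to 1.02 CPM in control cortex, 6.68–22.6 in dehydrated and 0.994–9.46 in rehydrated cortex, and 5.97–91.9 CPM in control medulla. Its medullary level fell by 2.54 ± 0.63 from dehydration to rehydration (edgeR adjusted p = 0.0211). ANGPTL4, an inhibitor of lipoprotein lipase, had 1.62–3.75, 9.42–33.4 and 4.97–17.9 CPM in the cortex (r = 0.85). It rose in the medulla, by 2.65 ± 0.55 under dehydration (edgeR adjusted p = 0.00861) and by 2.80 ± 0.55 under rehydration (edgeR adjusted p = 0.0215).

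On the opposite side, NOX4, the NADPH oxidase abundant in renal tubules, ran from 231–535 CPM in control to 87.1–187 in dehydrated and 164–259 CPM in rehydrated cortex (r = -0.88). NOL4 ran from 35.9–65.8 to 12.3–21.6 and 13.1–39.3 CPM (r = -0.90).

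When the 3 condition means were taken out, the 10 positive correlations fell to 0.28–0.78, lowest for ANGPTL4 (0.28) and CPA5 (0.34) and highest for TNKS1BP1 (0.78) and NDN (0.75). The negative ones ran from -0.60 to -0.36. Of the 20 genes with the highest r, 10 were called higher in dehydrated cortex (1.27% of all genes were, and the ranking used these libraries), and 1 was still among the 20 highest once the condition means were removed. Leaving out the 2 control libraries farthest from the WNT7B median left r between 0.72 (SLC27A3) and 0.90 (CPA5) for the 10. CA9 was at 0.86 and ANGPTL4 at 0.79. The ranking leaned on control replicate 2, which held 2 read pairs: without it, only 5 of the 20 highest genes were kept. In the medulla the same 10 genes had an r with WNT7B between -0.32 and 0.48.

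In the medulla, where the conditions did not separate WNT7B, 13877 genes were compared, with 21 at an r of at least 0.7 and 7 at -0.7 or below. The 10 highest with a symbol were HK1, ESRP2, PPP1R1B, GNAZ, EVC2, MINK1, PTGS1, HYOU1, MAP4K2 and PDE2A (r from 0.68 to 0.78). The 5 lowest were ITGA8, ENTPD5, KIAA1191, GUF1 and NUP50 (r from -0.78 to -0.67). The study's lists of changed genes held 6 of these 10 highest, PPP1R1B and PDE2A among them, and 3 of the 5 lowest. Of the 10 highest, 0 had an adjusted or unadjusted edgeR p under 0.05 in a medullary comparison of conditions. Over all tested genes the unadjusted share was 13.4% for dehydration, 14.7% for rehydration and 20.0% for rehydration against dehydration. After adjustment it was 1.68%, 0.813% and 3.67%. The 10 were picked for following a gene without a called medullary change, so a low count was partly built in. In controls 7 of the 10 were called higher in medulla than in cortex (32.2% of all genes were). Without the condition means r was 0.69–0.83, which is likeness among libraries of the same condition.

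HK1, the hexokinase of most tissues, had 271, 375, 301, 230 and 265 CPM in control medulla, 243, 262, 366, 290 and 262 in dehydrated and 352, 304, 286, 335 and 316 in rehydrated medulla (r = 0.78, rho = 0.69). Control replicate 4 was lowest and dehydrated replicate 3 among the highest for HK1 as for WNT7B, and without these 2 libraries r was 0.63. ESRP2, a splicing regulator of epithelia, kept an r of 0.68 without them and GNAZ, a G protein subunit, 0.28. ITGA8, an integrin of mesangial and stromal cells, had the lowest r (-0.78), and it was -0.88 without the 2 libraries.

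PPP1R1B, the phosphatase inhibitor DARPP-32, was the 1 gene among the 10 with a cortical r above 0.7 as well (0.74 in medulla, 0.72 in cortex). The cortical r of the 10 ran down to -0.65, which was that of HK1. PPP1R1B had 27.1–81.9, 102–232 and 45.5–87.5 CPM in control, dehydrated and rehydrated cortex, and 275–849 CPM in control medulla. Its cortical rise under dehydration was 1.45 ± 0.28 (edgeR adjusted p = 0.00421), and the phosphodiesterase PDE2A rose by 0.75 ± 0.19 (edgeR adjusted p = 0.0262). PTGS1, the cyclooxygenase of prostaglandin synthesis, had a cortical change of 0.36 (adjusted p = 0.517 by edgeR). The 20 most alike genes of the cortex and of the medulla had 0 genes in common.

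**Figure D5:**
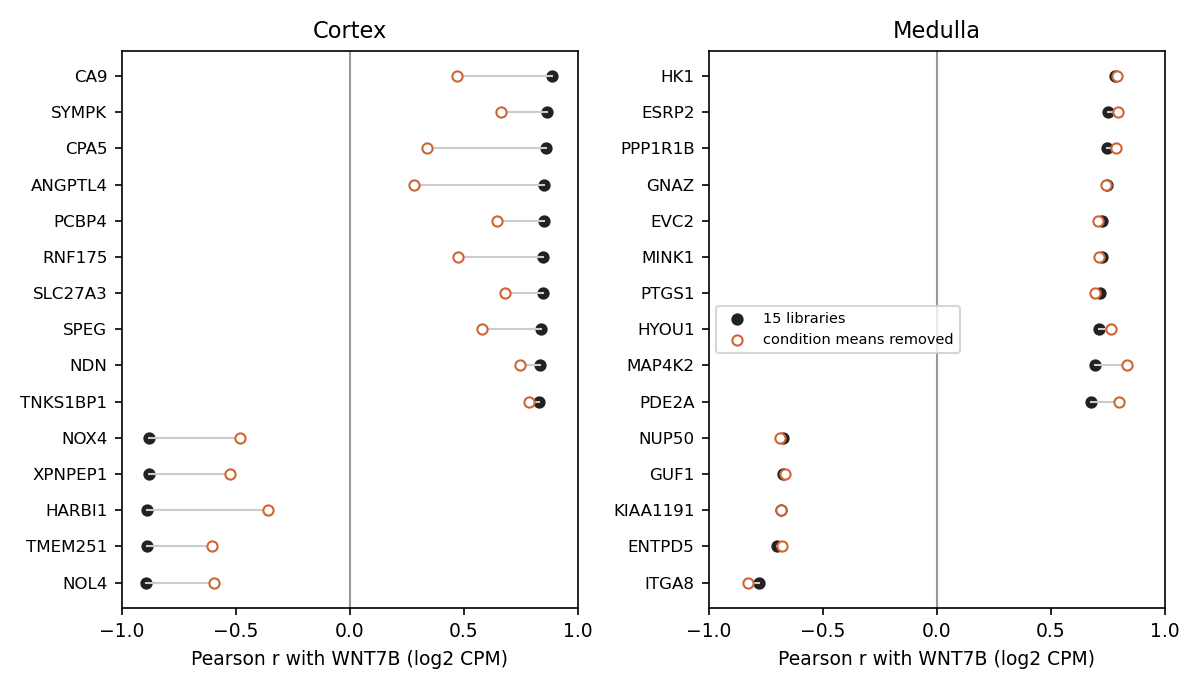
Pearson r with WNT7B over the 15 libraries of the cortex (left) and the medulla (right) for the 10 highest and 5 lowest genes with a symbol, as measured (filled) and after removal of the 3 condition means (open). In the cortex the open points lie nearer to 0, down to 0.28 for ANGPTL4, while in the medulla they stay between 0.69 and 0.83 for the 10 highest genes, moving most for MAP4K2 (from 0.70 to 0.83).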

How the data were processed

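Cortex and medulla of 15 camels gave 30 libraries in 6 groups of 5, grouped by the labels. The authors deposited raw counts of read pairs per gene: reads trimmed with BBDuk, aligned to CamDro2 (the methods name STAR, the column names Rsubread) and counted, stranded, with featureCounts 1.6.2 against Ensembl release 100. Gene length, another deposited column, was used for RPKM.

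Counts were fitted with edgeR 4.0.16 (R 4.3.3; filterByExpr with minimum count 10 and minimum total 15, TMM, quasi-likelihood, 1 fit of 30 libraries), with Benjamini-Hochberg adjustment over 15376 genes and a threshold of 0.05. CPM on the log2 scale used a prior count of 2. Likeness was Pearson's r among genes of at least 1 CPM in a tissue, named by the 10 highest and 5 lowest that carry a symbol. Symbols (4197 identifiers) came from the gene lists of the article's supplement; the count table pairs none. The fit and the ranking were tested on simulated data. The medulla-enriched list needed a medullary mean of 5 CPM and used a pseudocount of 0.1 CPM. Members and lists were chosen with earlier results of these data known. Replicates are separate camels. Alternatives were DESeq2, RLE factors, other filters, fewer libraries, RNA integrity, replicate block and each library left out.

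Camels pair the tissues by label. Deviations from group means of paired tissues correlated at a mean r of 0.139 in control, 0.0934 in dehydrated and 0.0487 in rehydrated camels (0.351 over 4 pairs with the numbers of the sample names).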

Additional observations from a re-analysis of the deposited data

Results flagged for a closer look

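The WNT7B change under dehydration differed between the tissues by 4.49 on the log2 scale (cortex minus medulla), but the difference was not tested because the gene was picked on its cortical change. SLC27A3 (1.82) and HARBI1 (-1.04), which were named for their cortical likeness to WNT7B, also stood apart in that comparison and are given without a test for the same reason.

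Of 246 groups of 5 libraries over 41 named genes, 18 (7.32%) had a library far from the other 4, where chance gives about 5%. None of them was a WNT7B group. Dehydrated cortex replicate 2 was high for SFRP4 (4.46 CPM) and TCF7L1 (25.6 CPM), the genes called in that comparison. Dehydrated medulla replicate 2 was high for CA9 (44.2 CPM), NOX4 (42.8 CPM) and SPEG (8.96 CPM), and replicate 1 for CPA5 (111 CPM). Rehydrated medulla replicate 2 was high for SOSTDC1 (116 CPM) and GSK3B (23.5 CPM), and replicate 3 for TCF7L1 (15.6 CPM). In control medulla, replicate 4 was high for DVL3 (51.7 CPM) and low for MINK1 (87.0 CPM), replicate 2 low for XPNPEP1 (64.5 CPM) and replicate 3 high for EVC2 (34.3 CPM). In control cortex, replicate 3 was high for SPEG (7.39 CPM) and low for ITGA8 (23.1 CPM), and replicate 5 high for NDN (11.2 CPM). In rehydrated cortex, replicate 5 was high for MINK1 (122 CPM) and replicate 2 low for NUP50 (93.0 CPM).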

How the results depend on the processing

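Under the alternatives that leave out no single library, the 9 WNT7B comparisons kept their direction, and the 4 that were tested (3 in medulla, and medulla against cortex in rehydration) kept their side of the threshold. With 1 library left out, WNT7B ranged from 4.29 to 4.78 (dehydration), 3.05 to 3.92 (rehydration) and -1.56 to -0.58 (rehydration against dehydration) in cortex, from -0.025 to 0.23, 0.05 to 0.30 and -0.025 to 0.20 in medulla, and from 6.85 to 7.34, 2.51 to 2.99 and 3.42 to 4.29 for medulla against cortex. In the medulla, dehydration changed sign without control replicate 4 (-0.005) and dehydrated replicate 3 (-0.025), and rehydration against dehydration without dehydrated replicate 1 (-0.012) and rehydrated replicate 1 (-0.025); none of these passed the test. Replicate number as a replicate block gave 4.57, 3.55 and -1.02 in cortex, where nothing was tested, and 0.13 and 0.19 in medulla, and camel as a block gave 7.16, 2.80 and 3.91; the block within the medulla changed no WNT7B call.

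Counts of Wnt genes called were unstable. Under DESeq2 they were 4, 1, 2, 2 and 1 for the 3 cortical comparisons, medullary dehydration, and medullary rehydration against dehydration. The cortical dehydration count was 1 with the 15 cortical libraries alone and 0 with RNA integrity, and 1 to 2 with a library left out (1 without control replicates 1, 2 and 4 and dehydrated replicates 1, 2, 3 and 5). The cortical rehydration against dehydration count was 0 with 15 libraries, 10 libraries, the replicate block or RNA integrity, and the medullary rehydration count 0 under every alternative except DESeq2; each ranged from 0 to 1 with a library left out. Of the 20 most alike genes, Spearman's rho shared 9 in cortex and 8 in medulla, and removal of condition means 1 and 8; with a library left out 5 to 19 and 8 to 18 were shared. The share of medulla-enriched genes above WNT7B in rehydrated cortex was 6.0% with 50 genes and 48.5% with 200; list lengths and the older quasi-likelihood method were chosen after seeing the data.

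Counts of 2 to 14 read pairs limit the cortical folds.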
